A study of Mus musculus with 15 samples.

Results

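The genes described here are 9 members of the chemokine system that places thymocytes within the thymus: the ligand genes Ccl19, Ccl25, Cxcl12, Ccl17 and Ccl22, and the receptor genes Ccr7, Ccr9, Cxcr4 and Ccr4. They were taken by exact gene symbol from the array annotation, and are 9 of 19938 genes measured under 1 symbol. Where several probe sets carried a symbol, the brightest on average represented the gene. All 9 were found. Their group means lay at 8.36 log2 or above, over the limit of 6.92 that marks the dimmest genes on these arrays.

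Chemokines are small secreted proteins that draw cells along gradients, and each is read by a receptor coupled to inhibitory G proteins. In the thymus, CXCL12 and its receptor CXCR4, with CCL25 and its receptor CCR9, guide progenitors and immature thymocytes through the cortex. CCL19, made by medullary stroma, acts on CCR7, which positively selected thymocytes raise as they move into the medulla. CCL17 and CCL22, made mainly by dendritic cells, act on CCR4, which is raised early after positive selection and brings thymocytes to antigen-presenting cells of the medulla, where negative selection takes place.

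Whole thymus of 5-week-old female mice was measured on 15 Affymetrix Mouse Gene 1.0 ST arrays, which the labels call biological replicates, and precision is limited by how many there are. Mice had received 0.5 µg of peptide by vein, and the thymus was collected 2 h later. NOD.LCMV mice received gp33, a peptide of the lymphocytic choriomeningitis virus (n = 3), or a control peptide that binds Db, a class I molecule (n = 3). NOD.Ln82-LCMV mice received gp33 (n = 5) or the control peptide (n = 4). All mice carry the LCMV element of their strain name, which the labels do not define, nor do they define the Ln82 segment. The labels note negative selection for mice given gp33, and the study concerned Nfkbid, a gene of the Idd7 diabetes locus, in how the thymus deletes CD8 T cells. No processing batch is named, so a batch that followed strain or peptide cannot be told apart from them. Values are log2 and are compared within a gene only, because probe sets differ in brightness.

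Array medians lay between 7.59 and 7.67. Markers of double-positive thymocytes averaged between 10.70 and 11.68 on every array, and markers of cortical epithelium between 10.17 and 10.72. The authors' RNA came from whole thymus, so a lower value can mean fewer cells of a type or less RNA per cell, and these cannot be told apart.

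The 3 ligand genes that moved most are shown by the 250 bases before their annotated start, from RefSeq on GRCm38.p6, because Ccl22 and Ccl17 are near neighbours that rose together. Capitals mark matches to any of 5 motifs searched on both strands. These were the NF-κB consensus, the AP-1 motif TGANTCA, the STAT motif TTCNNNGAA, the NFAT motif TGGAAA and the TATA box with the letters TATAAA.
Ccl22, chr8:94745434-94745683, plus strand: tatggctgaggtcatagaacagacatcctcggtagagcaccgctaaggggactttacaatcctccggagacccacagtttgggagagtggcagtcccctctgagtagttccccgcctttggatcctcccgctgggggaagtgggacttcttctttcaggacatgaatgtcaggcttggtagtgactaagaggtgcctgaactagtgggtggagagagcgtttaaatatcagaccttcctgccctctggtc
Ccl17, chr8:94810203-94810452, plus strand: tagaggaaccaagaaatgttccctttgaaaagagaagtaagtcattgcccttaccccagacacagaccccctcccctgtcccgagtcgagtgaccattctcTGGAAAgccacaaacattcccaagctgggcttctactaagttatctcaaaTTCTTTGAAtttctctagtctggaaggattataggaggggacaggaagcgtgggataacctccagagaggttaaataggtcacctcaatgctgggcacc
Ccl19, chr4:42756366-42756615, minus strand: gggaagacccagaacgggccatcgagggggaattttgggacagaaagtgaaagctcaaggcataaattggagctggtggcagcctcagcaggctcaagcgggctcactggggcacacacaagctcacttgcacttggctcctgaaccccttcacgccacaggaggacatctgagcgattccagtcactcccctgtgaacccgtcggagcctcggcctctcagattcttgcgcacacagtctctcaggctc
In windows that also held the 50 bases after the start, Ccl17 had 1 STAT match at positions -99 to -91 from the start and 1 NFAT match at -149 to -144, and these do not overlap. Of 32851 windows of that length, 8.3% held the STAT motif and 21.4% the NFAT motif, and 8.5%, 7.8% and 13.6% held the NF-κB, AP-1 and TATA motifs. The windows of Ccl22 and Ccl19 had 0 matches to the 5 motifs, which says only that these letters are not in these windows. Among the other members, Ccr4 held 1 AP-1 match, and Cxcr4 and 1 of the 2 windows of Ccl25 held TATA matches. A window was given for 8 of the 9 genes.

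After gp33 in NOD.LCMV mice, 3 ligand genes rose and 1 ligand gene and 2 receptor genes fell. Ccl22 and Ccl17, the CCR4 ligands, rose 2.87-fold each, and Ccl19, a CCR7 ligand, rose 1.91-fold. Ccr7 fell to 0.637 of the control level, Ccr9 to 0.760 and Cxcl12 to 0.788. In NOD.Ln82-LCMV mice, limma called 0 of the 9 genes, with 2 at an unadjusted p under 0.05, Ccl25 and Cxcr4. In limma, 6 of 9 genes were called in NOD.LCMV, where 19.8% of all genes were called, 7.29% as higher and 12.5% as lower. Below, the interaction is the NOD.LCMV response minus the NOD.Ln82-LCMV response. In NOD.Ln82-LCMV 0.00502% of all genes were called, and 5.97% had an unadjusted p under 0.05. The groups did not overlap for 7 of 9 genes in NOD.LCMV, against 32.9% of all genes, and for 0 of 9 in NOD.Ln82-LCMV, against 1.51%. The median difference over the 9 genes was -0.09 log2 in NOD.LCMV (-0.03 over all genes) and 0.14 in NOD.Ln82-LCMV (0.00 over all genes). An exact permutation test, two-sided, could not give a p below 0.1 in NOD.LCMV (20 splits) or below 0.0159 in NOD.Ln82-LCMV (126 splits).

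**Figure D1:**
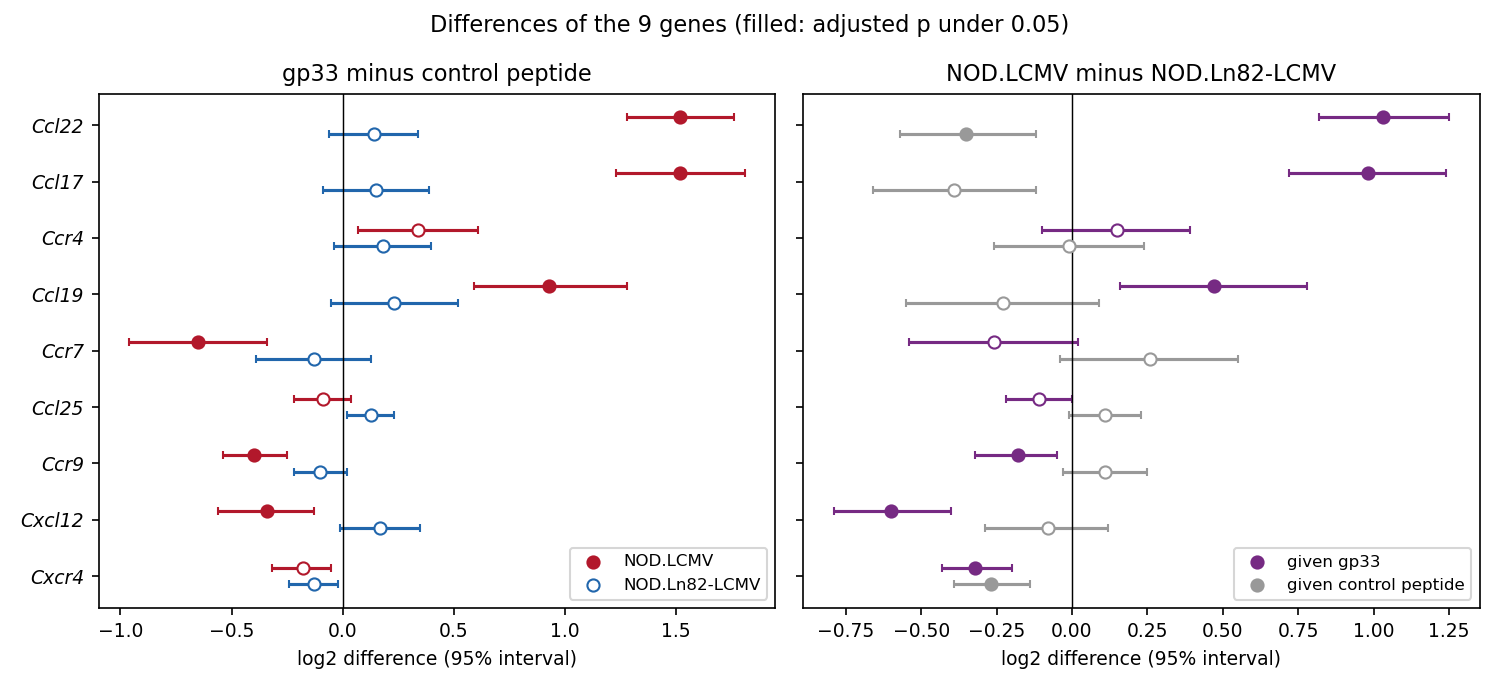
Log2 differences of the 9 genes with 95% intervals from the limma fit, for gp33 minus control peptide in each strain (left) and for NOD.LCMV minus NOD.Ln82-LCMV with each peptide (right). Filled points passed an adjusted p of 0.05 over all genes. Ccl22 and Ccl17 stand at 1.52 in NOD.LCMV, with open points at 0.14 and 0.15 in NOD.Ln82-LCMV.

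Ccl22 encodes a chemokine of mature dendritic cells and macrophages. Its probe set (10574213) read 10.68, 10.39 and 10.42 log2 in NOD.LCMV mice given gp33, against 9.04, 9.16 and 8.73 in NOD.LCMV mice given the control peptide. Every gp33 mouse lay above every control mouse by more than 1 log2 unit. The difference was 1.52 ± 0.11 log2 (SE), with an interval of the fold from 2.43 to 3.39 (limma adjusted p = 1.28e-07). In NOD.Ln82-LCMV it read 9.52, 9.45, 9.45, 9.43 and 9.48 with gp33, against 9.07, 9.30, 9.48 and 9.45 with the control peptide. The 5 gp33 mice sat within 0.09 log2 of each other, at the top of the control range and with 1 of them just above it. That difference of 0.14 ± 0.09 log2 did not pass (limma adjusted p = 0.93, exact permutation p = 0.222). It was 0.06 without control replicate 1, and 0.06 to 0.19 over all arrays left out. The interaction was 1.38 ± 0.15 log2 (limma adjusted p = 1.59e-05).

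Ccl17, the other CCR4 ligand, showed nearly the same profile. Probe set 10574226 read 10.02, 9.88 and 9.74 log2 in NOD.LCMV mice given gp33, against 8.51, 8.38 and 8.19 in those given the control peptide. The groups were more than 1 log2 unit apart, and Ccl17 rose by 1.52 ± 0.14 log2 (limma adjusted p = 1.05e-06), with a fold interval of 2.35 to 3.51. NOD.Ln82-LCMV mice read 8.64, 8.87, 8.91, 9.01 and 9.08 with gp33, against 8.49, 8.64, 8.80 and 9.07 with the control peptide. These ranges overlapped almost wholly, and the difference of 0.15 ± 0.11 log2 did not pass (limma adjusted p = 0.955, exact permutation p = 0.286). It was 0.07 without control replicate 1 and 0.26 without control replicate 4, the ends of the range over all arrays left out. The interaction was 1.37 ± 0.18 log2 (limma adjusted p = 0.000112).

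Ccl22 and Ccl17 flank Cx3cl1, the gene of fractalkine, on chromosome 8, and the NOD.LCMV rise covered these 3 chemokine genes but not the measured genes beside them. Cx3cl1 averaged 8.78 ± 0.12 log2 with gp33 and 8.04 ± 0.14 with the control peptide in NOD.LCMV (SD, n = 3 each), a rise of 0.74 ± 0.08 (limma adjusted p = 4.94e-06). In NOD.Ln82-LCMV its difference was 0.21 ± 0.06 log2 and did not pass (limma adjusted p = 0.651). Its values there were 8.25 to 8.29 with gp33 and 7.90 to 8.18 with the control peptide. These ranges did not overlap, as for 1.51% of all genes in that strain. The values that follow are for NOD.LCMV. Of the 3 measured genes before Ccl22, Rspry1, Arl2bp and Pllp had differences of -0.12, -0.17 and -0.15 log2, and none passed. Of the 3 after Ccl17, Ciapin1 at 0.08 and Polr2c at 0.06 did not pass, and the coenzyme Q gene Coq9 fell by 0.24 ± 0.07 log2 (limma adjusted p = 0.0278). These neighbours were chosen by position after the values of the members were known.

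**Figure D2:**
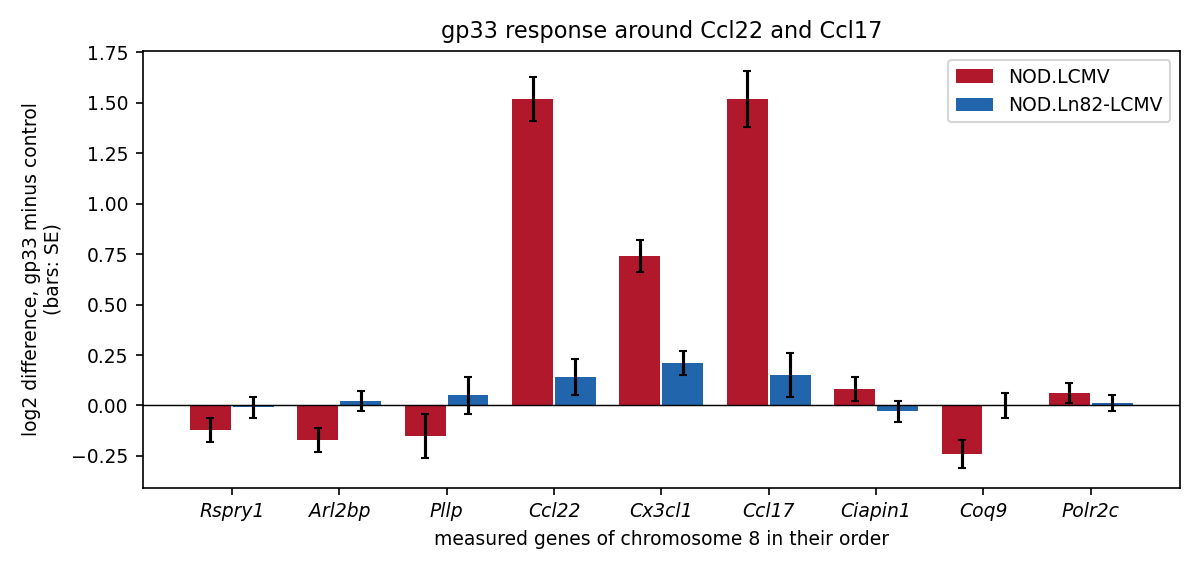
Log2 difference, gp33 minus control peptide, of 9 measured genes of chromosome 8 in their order, with SE bars, for NOD.LCMV and NOD.Ln82-LCMV. The bars of Ccl22, Cx3cl1 and Ccl17 reach 1.52, 0.74 and 1.52 in NOD.LCMV, and the 6 others lie between -0.24 and 0.08.

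Most listed markers of mature dendritic cells, the main source of both chemokines, rose with them. Of 8 measured markers, 7 rose in NOD.LCMV, among them the costimulatory receptor gene Cd40 (1.59 log2), Cd83 (1.20) and the actin-bundling gene Fscn1 (0.70), and Lamp3 did not pass at 0.03. Over all genes, 7.29% rose and 12.5% fell. Ccr7, which these cells also express, was not on this list and fell (-0.65 log2). The list averaged 9.24 to 9.55 log2 per array with gp33, against 8.49 to 8.64 with the control peptide. The 9 markers of conventional dendritic cells averaged 8.52 to 8.66 against 8.52 to 8.58, and of them Irf8 rose (1.52) while Clec9a (-0.72), Xcr1 (-0.67) and Flt3 (-0.34) fell. Of 5 granulocyte markers, 4 rose, with array means of 7.75 to 8.20 against 6.84 to 7.15. Of 6 macrophage markers Mertk alone fell (-0.53), and neither the 4 adipocyte markers nor the red cell gene Alas2 passed in this comparison. The part of these cells in the rise of Ccl22 and Ccl17 was not tested.

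Ccr4, the receptor of both ligands, did not pass in either strain. Probe set 10597420 read 12.01, 12.49 and 12.29 log2 in NOD.LCMV with gp33, against 11.93, 11.82 and 12.03 with the control peptide. The lowest gp33 mouse lay inside the control range, and the difference was 0.34 ± 0.13 log2 with an interval of 0.07 to 0.61 (limma adjusted p = 0.0773). It was called when replicate 1 of NOD.LCMV given gp33 (0.46 log2, limma adjusted p = 0.0184) or replicate 5 of NOD.Ln82-LCMV given gp33 (0.34, limma adjusted p = 0.0495) was left out, and ranged from 0.22 to 0.46 over all arrays left out. In NOD.Ln82-LCMV the values of 12.37, 12.16, 12.06, 11.93 and 12.07 with gp33, against 12.09, 11.71, 12.04 and 11.90 with the control peptide, overlapped (0.18 ± 0.10 log2, limma adjusted p = 0.892, and 0.11 to 0.23 with 1 array left out). The interaction was 0.15 log2, with an interval of -0.19 to 0.50. CCR4 also marks regulatory T cells. In NOD.LCMV, 4 of 5 of their markers rose (array means of 10.01 to 10.21 against 9.18 to 9.29), where 7.29% of all genes rose. They were led by Il2ra (1.67 log2), while the defining gene Foxp3 did not pass at 0.10. The part of regulatory T cells was not tested.

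**Figure D3:**
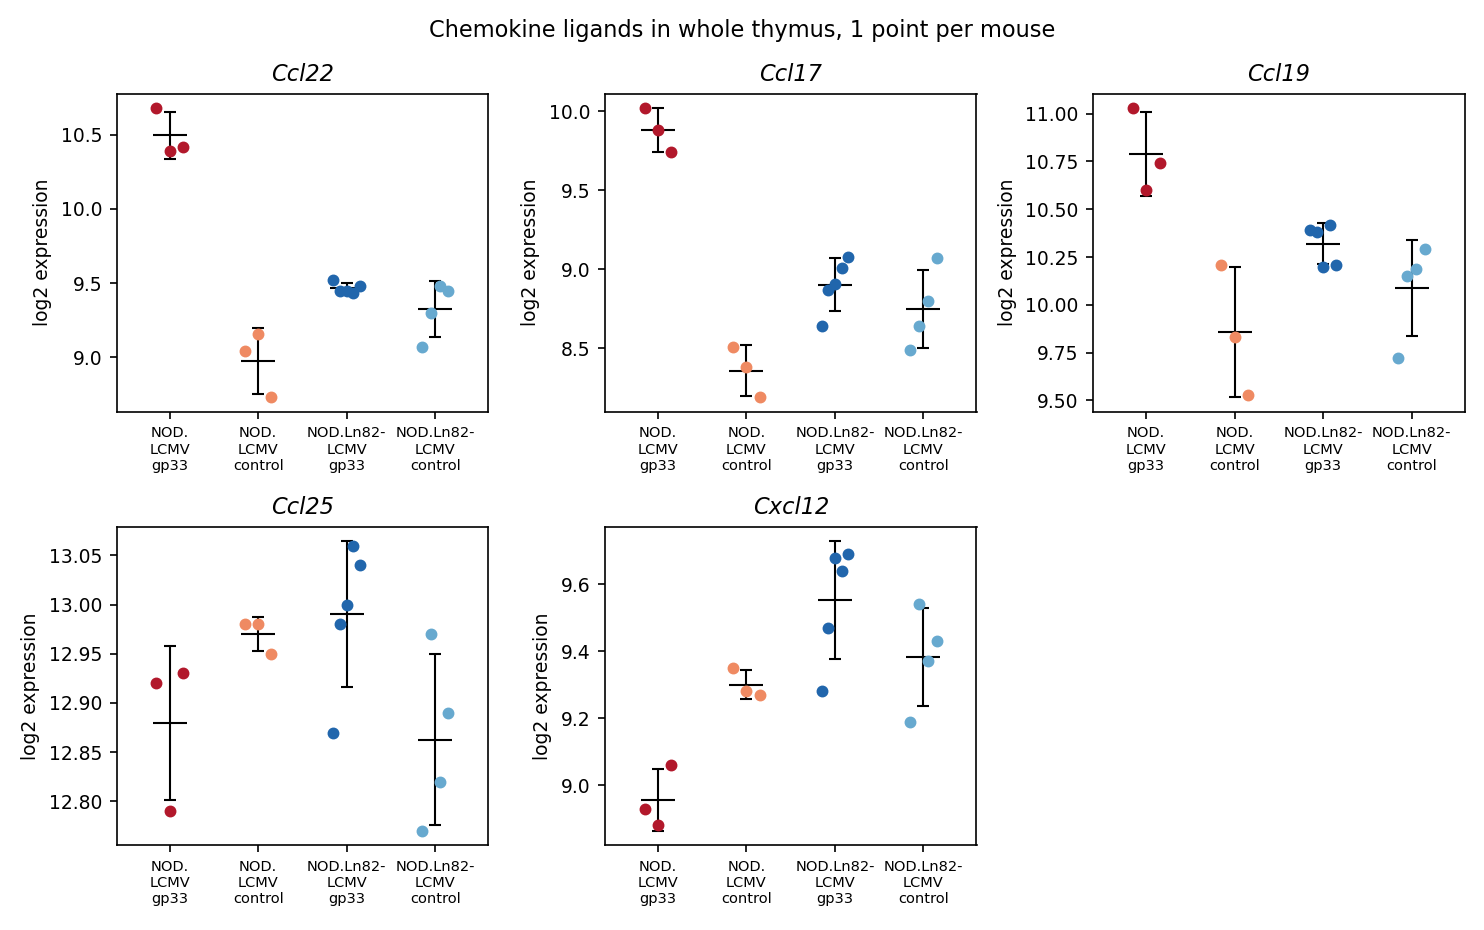
Log2 expression of the 5 ligand genes, 1 point per mouse, with the group mean and SD as bars, in NOD.LCMV and NOD.Ln82-LCMV given gp33 or the control peptide. Axes differ between genes and do not start at 0. The 3 NOD.LCMV gp33 mice lie above all other mice for Ccl22, Ccl17 and Ccl19, and below all other mice for Cxcl12.

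Ccl19 had 5 probe sets, all annotated to the same gene, and all of them rose in NOD.LCMV. Probe sets 10504159 and 10512322 held identical values on all 15 arrays, and no pair of the 5 differed by more than 0.12 log2 on any array, so they are not separate measurements. Read by 10504159, Ccl19 stood at 11.03, 10.60 and 10.74 log2 in NOD.LCMV with gp33, against 10.21, 9.83 and 9.53 with the control peptide. The control mice spread over 0.68 log2, and the groups still did not overlap. Ccl19 rose by 0.93 ± 0.16 log2 (limma adjusted p = 0.000692), with a fold interval of 1.5 to 2.43. With every probe set fitted on its own the 5 gave 0.91 to 0.95.

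In NOD.Ln82-LCMV, Ccl19 read 10.39, 10.38, 10.20, 10.42 and 10.21 log2 with gp33, against 9.72, 10.15, 10.19 and 10.29 with the control peptide. The ranges overlapped, and control replicate 1 was the lowest of these mice. This difference of 0.23 ± 0.13 log2 did not pass (limma adjusted p = 0.893, exact permutation p = 0.0794) and was 0.11 without that control mouse. The interaction, 0.70 ± 0.21 log2, fell just short (limma adjusted p = 0.0511). Among the 5 probe sets its adjusted p ran from 0.0447 for 10512372 to 0.0635 for 10504188. It was called once replicate 1 of the NOD.Ln82-LCMV controls (0.82), replicate 1 of the NOD.LCMV controls (0.88) or replicate 2 of NOD.LCMV given gp33 (0.80) was left out. It was also called with median centring (limma adjusted p = 0.0421), dim genes left out (0.0376), the mean over probe sets (0.0499), a variance trend (0.0415) or array weights (0.00461). The probe sets of the other CCR7 ligand, CCL21, number 4 and carry the symbols of several gene copies, so they were not analysed here.

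Of 8 markers of medullary epithelium, a source of Ccl19, 1 rose in NOD.LCMV, the tight-junction gene Cldn4 (0.37 log2), and the list averaged 8.48 to 8.76 with gp33 against 8.48 to 8.59 with the control peptide. Aire, which drives display of tissue antigens in the medulla, did not pass at -0.05 log2. Over all genes, 7.29% rose in NOD.LCMV.

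Ccr7, the receptor of CCL19 on maturing thymocytes and mature dendritic cells, moved opposite to its ligand. Probe set 10390763 read 10.60, 9.99 and 10.27 log2 in NOD.LCMV with gp33, against 11.03, 10.99 and 10.79 with the control peptide. The groups did not overlap, although the gp33 mice spread over 0.61 log2. Ccr7 fell by 0.65 ± 0.15 log2 (limma adjusted p = 0.00491). In NOD.Ln82-LCMV the gp33 mice read 10.56, 10.50, 10.55, 10.51 and 10.63, and the control mice 11.08, 10.46, 10.54 and 10.64. The high control mouse is the replicate 1 that was low for Ccl19. The difference of -0.13 ± 0.12 log2 did not pass (limma adjusted p = 0.981) and was 0.00 without that mouse. The interaction did not pass (-0.52 ± 0.19 log2, limma adjusted p = 0.114), but was called without NOD.Ln82-LCMV control replicate 1 (-0.65, limma adjusted p = 0.0133) or NOD.LCMV gp33 replicate 1 (-0.68, limma adjusted p = 0.0295), and with array weights (-0.51, limma adjusted p = 0.0365).

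Ccr9, the CCL25 receptor of cortical thymocytes, fell as well. Probe set 10590620 read 12.73, 12.72 and 12.84 log2 in NOD.LCMV with gp33, against 13.21, 13.11 and 13.16 with the control peptide. Each group was tight and they lay apart, with a fall of 0.40 ± 0.07 log2 (limma adjusted p = 0.000732). NOD.Ln82-LCMV mice read 12.96, 12.90, 12.90, 12.96 and 13.02 with gp33, against 13.25, 12.92, 13.01 and 13.01 with the control peptide. Replicate 1 was again the control mouse apart from the rest, and the difference of -0.10 ± 0.06 log2 did not pass (limma adjusted p = 0.893; -0.03 log2 without that mouse). The interaction, -0.30 ± 0.09 log2, did not pass (limma adjusted p = 0.0538). It was called without NOD.Ln82-LCMV control replicate 1 (-0.36, limma adjusted p = 0.00279) or NOD.LCMV gp33 replicate 3 (-0.34, limma adjusted p = 0.0466). The same held after a second quantile normalisation (limma adjusted p = 0.0349) and with dim genes left out (0.0414), a variance trend (0.0328) or array weights (0.0103).

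Most listed thymocyte markers fell in NOD.LCMV, as Ccr7 and Ccr9 did, where 12.5% of all genes fell. Of 7 double-positive markers, 5 fell, among them the coreceptor genes Cd8a (-0.51 log2) and Cd4 (-0.36), and the list averaged 10.70 to 11.38 per array with gp33, against 11.38 to 11.59 with the control peptide. Of 5 markers of mature single-positive thymocytes, 3 fell, S1pr1 (-0.85), Itgb7 (-0.78) and Ms4a4b (-0.50), with array means of 8.70 to 9.08 against 9.31 to 9.40. In each list 2 markers were not called. The part of these cells in the fall of the 2 receptors was not tested.

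Ccl25, the CCR9 ligand made by cortical epithelium, was called in no comparison by its brighter probe set as fitted here, though some alternatives called it. Probe set 10569962 read 12.92, 12.79 and 12.93 log2 in NOD.LCMV with gp33, against 12.98, 12.98 and 12.95 with the control peptide. The groups did not overlap, but the difference was only -0.09 ± 0.06 log2 with an interval of -0.22 to 0.04 (limma adjusted p = 0.383). The dimmer probe set 10569958 averaged 8.61 ± 0.07 with gp33 and 8.85 ± 0.12 with the control peptide (SD, n = 3 each) and was called when every probe set was fitted on its own (-0.25 ± 0.07 log2, limma adjusted p = 0.0138). The 2 probe sets thus disagree on the call, and the mean of both gave -0.17 log2 (limma adjusted p = 0.0145). In NOD.Ln82-LCMV the brighter set ranged from 12.87 to 13.06 with gp33, against 12.77 to 12.97 with the control peptide (0.13 ± 0.05 log2, limma adjusted p = 0.765). The interaction, -0.22 ± 0.08 log2, did not pass (limma adjusted p = 0.107) but was called without replicate 5 of NOD.Ln82-LCMV given gp33 (-0.25, limma adjusted p = 0.0414), with array weights (-0.24, limma adjusted p = 0.0152) and with the mean over probe sets (-0.20, limma adjusted p = 0.0421). Array weights also called its strain difference with the control peptide (0.12, limma adjusted p = 0.0474).

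Cxcl12, a stromal chemokine that holds CXCR4-bearing cells, fell in NOD.LCMV, and its response differed between the strains. Probe set 10541075 read 8.93, 8.88 and 9.06 log2 in NOD.LCMV with gp33, against 9.35, 9.28 and 9.27 with the control peptide. The groups did not overlap, and Cxcl12 fell by 0.34 ± 0.10 log2 (limma adjusted p = 0.0259). NOD.Ln82-LCMV mice read 9.28, 9.47, 9.68, 9.64 and 9.69 with gp33, against 9.19, 9.54, 9.37 and 9.43 with the control peptide. Of the 5 gp33 mice, 3 lay above every control, but the ranges overlapped, and the difference of 0.17 ± 0.08 log2 did not pass (limma adjusted p = 0.845, exact permutation p = 0.175, and 0.11 to 0.24 with 1 array left out). The interaction was -0.51 ± 0.13 log2 (limma adjusted p = 0.024).

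These calls of Cxcl12 depended on single arrays. Over all arrays left out in turn, the NOD.LCMV difference ran from -0.40 to -0.31 log2. It lost its call without any 1 of the 3 NOD.LCMV controls, or without replicate 1 or 2 of that strain given gp33 (limma adjusted p up to 0.0993). The interaction ran from -0.58 to -0.45 and lost its call without replicate 1 or 2 of either NOD.LCMV group (limma adjusted p up to 0.0716). With each array centred on its median, the fall was -0.31 (limma adjusted p = 0.0514). Cortical epithelium markers averaged 10.17 to 10.30 per array with gp33, against 10.42 to 10.48 with the control peptide, and 3 of 7 fell: the thymoproteasome gene Psmb11 (-0.53), the Notch ligand gene Dll4 (-0.51) and the epithelial master regulator Foxn1 (-0.33). Of 7 fibroblast markers, Pdgfrb alone fell (-0.49; array means of 8.54 to 8.59 against 8.67 to 9.0), and of 7 endothelial markers Eng (-0.91) and Pecam1 (-0.61) fell (8.20 to 8.22 against 8.35 to 8.67). Over all genes, 12.5% fell in NOD.LCMV. The part of these cell types in the fall of Cxcl12 was not tested.

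Cxcr4, the CXCL12 receptor of immature thymocytes, was lower in NOD.LCMV than in NOD.Ln82-LCMV with either peptide. Probe set 10357472 read 10.85, 10.64 and 10.72 log2 in NOD.LCMV with gp33, against 10.97, 10.95 and 10.84 with the control peptide. These ranges met at the edge, and the difference of -0.18 ± 0.06 log2 fell just short (limma adjusted p = 0.051). NOD.Ln82-LCMV mice read 10.95, 11.09, 11.02, 11.14 and 11.06 with gp33, against 11.19, 11.17, 11.12 and 11.26 with the control peptide (-0.13 ± 0.05 log2, limma adjusted p = 0.762, exact permutation p = 0.0317). The response was the same in sign in both strains, and the interaction was -0.05 log2, with an interval of -0.22 to 0.12. Over all arrays left out in turn, the NOD.LCMV difference ran from -0.24 to -0.14 log2. It was called once replicate 3 of the NOD.LCMV controls, replicate 1 of NOD.LCMV given gp33, replicate 4 of the NOD.Ln82-LCMV controls or replicate 5 of NOD.Ln82-LCMV given gp33 was left out. It was also called with dim genes left out (limma adjusted p = 0.0392), a variance trend (0.0398) or array weights (0.0408).

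**Figure D4:**
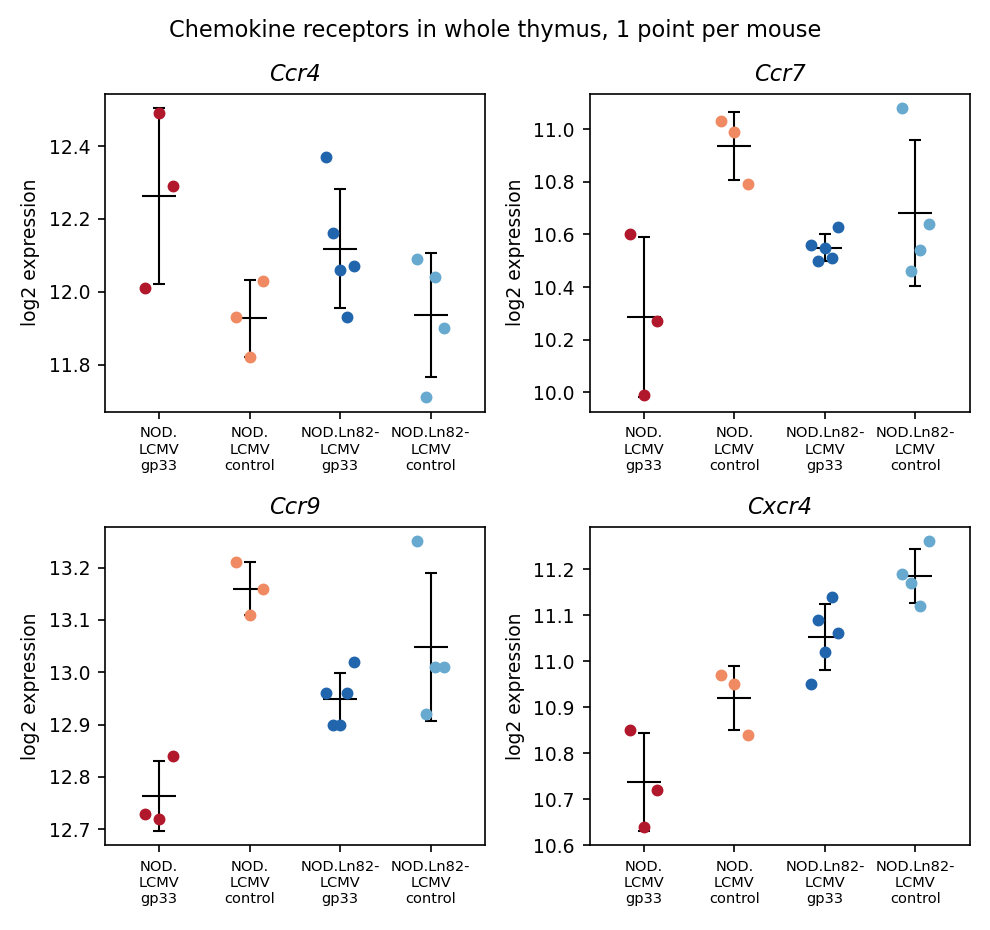
Log2 expression of the 4 receptor genes, 1 point per mouse, with the group mean and SD as bars, in NOD.LCMV and NOD.Ln82-LCMV given gp33 or the control peptide. Axes differ between genes and do not start at 0. Ccr9 is lowest in NOD.LCMV given gp33 (12.72 to 12.84), Ccr4 overlaps in all groups, and Cxcr4 is lower in NOD.LCMV than in NOD.Ln82-LCMV with either peptide.

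Across strains, the response to gp33 differed for 3 of the 9 genes by the test of the difference itself, Ccl22, Ccl17 and Cxcl12, where 8.73% of all genes passed, 4.46% as higher and 4.26% as lower. This comparison shares its arrays with those of the single strains. Leaving out NOD.Ln82-LCMV control replicate 1 raised the count to 6. Calls over all genes rose in that fit too, to 938 higher and 1016 lower, from 890 and 850 of 19938 as reported.

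With gp33 given, 6 of 9 genes differed between NOD.LCMV and NOD.Ln82-LCMV, where 27.0% of all genes did, 10.2% as higher and 16.8% as lower. Higher in NOD.LCMV were Ccl22 (1.03 ± 0.10 log2, 2.04-fold, limma adjusted p = 2.04e-06), Ccl17 (0.98 ± 0.12, 1.97-fold, limma adjusted p = 2.06e-05) and Ccl19 (0.47 ± 0.14, 1.39-fold, limma adjusted p = 0.0242). Lower were Cxcl12 (-0.60 ± 0.09 log2, limma adjusted p = 0.000151), Cxcr4 (-0.32 ± 0.06, limma adjusted p = 0.000517) and Ccr9 (-0.18 ± 0.06, limma adjusted p = 0.0377). For these 6 genes the 3 NOD.LCMV mice did not overlap the 5 NOD.Ln82-LCMV mice, as for 26.9% of all genes, and each had the smallest exact permutation p that 56 splits allow, 0.0357. Ccr7 (-0.26 log2), Ccl25 (-0.11) and Ccr4 (0.15) did not pass.

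The calls of Ccl19 and Ccr9 in that comparison rested on single arrays. Among mice given gp33, Ccl19 lost its call without replicate 1 or 3 of NOD.LCMV or replicate 2 or 4 of NOD.Ln82-LCMV (0.35 to 0.56 log2 over all arrays left out). Ccr9 lost its call without replicate 1 or 2 of NOD.LCMV or replicate 3, 4 or 5 of NOD.Ln82-LCMV (-0.22 to -0.16). Ccr7 was called without NOD.LCMV gp33 replicate 1 (-0.42 log2, limma adjusted p = 0.0303).

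With the control peptide, 2 of 9 genes differed between the strains, where 10.3% of all genes did (4.77% as higher, 5.54% as lower), and both were lower in NOD.LCMV. Cxcr4 averaged 10.92 ± 0.07 log2 in NOD.LCMV (n = 3) and 11.18 ± 0.06 in NOD.Ln82-LCMV (SD, n = 4), a difference of -0.27 ± 0.06 (limma adjusted p = 0.00895). It was the 1 member whose groups did not overlap here, as 19.6% of all genes did not, with the smallest exact permutation p that 35 splits allow, 0.0571. Ccl22 averaged 8.98 ± 0.22 in NOD.LCMV (n = 3) and 9.32 ± 0.19 in NOD.Ln82-LCMV (SD, n = 4), with overlapping ranges (-0.35 ± 0.11 log2, limma adjusted p = 0.0478). Ccl17 lay in the same direction without passing (-0.39 ± 0.13 log2, limma adjusted p = 0.0661). The order of the 2 CCR4 ligands by strain was thus opposite with gp33, higher in NOD.LCMV, and with the control peptide, lower in NOD.LCMV, although for Ccl17 the second did not pass. This order was not particular to them. With the control peptide, 4 of 30 other chemokine ligand genes were lower in NOD.LCMV and 0 higher. Of these 4, Ccl3 (-1.16 log2) and Cxcl10 (-0.74) were higher with gp33 (2.78 and 2.1). Ccl11 (-0.56) was not called with gp33 (0.06), and Ppbp (-0.9) was lower there too (-0.72).

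The Ccl22 call held without replicate 1 of the NOD.Ln82-LCMV controls, replicate 2 of the NOD.LCMV controls or replicate 1 of NOD.LCMV given gp33. It was lost without any other array, with differences from -0.44 to -0.23 log2 over all of them. It was also lost after a second quantile normalisation (limma adjusted p = 0.056) and with only the compared groups fitted (0.138). The Cxcr4 call did not hold without replicate 3 of the NOD.LCMV controls (-0.23, limma adjusted p = 0.0613). Without NOD.Ln82-LCMV control replicate 1, 5 genes were called, Ccl17 (-0.48), Ccr7 (0.39) and Ccr9 (0.18) among them, and Ccl17 was also called without replicate 5 of NOD.Ln82-LCMV given gp33 (-0.39). Ccl17 was called too with median centring (-0.46), dim genes left out (-0.39) or array weights (-0.39), and Ccr7 with array weights (0.37).

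Of 4 markers of B cells, which express Ccr7 and Cxcr4, Cd79b was lower in NOD.LCMV with the control peptide (-0.72 log2; array means of 7.48 to 8.43 against 7.85 to 8.86) and 3 were lower with gp33 (7.48 to 8.01 against 8.48 to 9.08). The red cell gene Alas2 was lower in NOD.LCMV with gp33 (-1.09) and with the control peptide (-0.73). Other lists also held calls with the control peptide, where 4.77% of all genes were higher and 5.54% lower. Lower in NOD.LCMV were Cd83 of mature dendritic cells (-0.27 log2, list median -0.23) and Krt14 of medullary epithelium (-0.36). So were 1 of 6 macrophage markers and 1 of 5 regulatory T cell markers. Higher were 2 of 7 endothelial markers and 1 of 5 mature single-positive markers.

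Markers of further cell types differed between the strains with gp33, where 16.8% of all genes were lower in NOD.LCMV and 10.2% higher. Lower in NOD.LCMV were 5 of 7 cortical epithelium markers (array means of 10.17 to 10.30 against 10.41 to 10.72), led by Psmb11 (-0.75 log2), 3 of 8 of medullary epithelium (8.48 to 8.76 against 8.66 to 8.84) and 4 of 6 of macrophages (9.33 to 9.50 against 9.51 to 9.95). Of fibroblast, endothelial, double-positive and mature single-positive markers, 3 of 7, 2 of 7, 3 of 7 and 2 of 5 were lower and 0 higher. Higher in NOD.LCMV were 5 of 8 mature dendritic cell markers (9.24 to 9.55 against 8.84 to 8.90), 4 of 5 of granulocytes (7.75 to 8.20 against 6.73 to 7.22) and 4 of 5 of regulatory T cells (10.01 to 10.21 against 9.46 to 9.53). Conventional dendritic cells had 1 marker higher and 3 lower of 9. The part of any of these cells in the strain differences of the 9 genes was not tested.

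The other chemokine genes place these members within their family. In NOD.LCMV, 18 of 30 other ligand genes rose after gp33 and 0 fell, where 7.29% of all genes rose and 12.5% fell. The median of the 30 was 0.45 log2, against -0.03 over all genes. Smallest in p-value were Ccl2, a monocyte attractant (2.61 ± 0.13), and Cxcl9, Cxcl11 and Cxcl10, ligands of CXCR3 (3.33, 1.82 and 3.57). In NOD.Ln82-LCMV limma called 0 of these 30 and 0.00502% of all genes, and the median of the 30 was 0.05 log2. There Ccl2, Cxcl9, Cxcl11 and Cxcl10 had differences of 0.40 ± 0.11, 0.59 ± 0.16, 0.17 ± 0.09 and 0.73 ± 0.18 log2. The largest of the 30 was that of Xcl1, at 1.11 ± 0.25 log2 (limma adjusted p = 0.374), against 4.47 in NOD.LCMV. By the interaction, 16 of the 30 were called higher and 0 lower, where 4.46% and 4.26% of all genes were. Of 14 other receptor genes, 3 rose and 2 fell in NOD.LCMV: Ccrl2, which binds chemerin, rose by 1.62 ± 0.08 log2, Cxcr2 by 0.77 and Ccr1 by 0.43, and Xcr1 (-0.67) and Cx3cr1 (-0.29) fell. Ccr8 did not pass (0.58 ± 0.22 log2, limma adjusted p = 0.0868).

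Of 4 atypical receptor genes, which bind chemokines without G-protein signals, Ackr1 rose in NOD.LCMV (0.38 ± 0.07 log2, limma adjusted p = 0.00118), and Ackr2 did not pass (-0.08). Ackr4, which removes CCL19, CCL21 and CCL25, had a difference of -0.19 log2 in NOD.LCMV and 0.12 in NOD.Ln82-LCMV, and Ackr3, which removes CXCL12, of -0.08 and -0.02, and none of these values passed. With gp33, Ackr4 was lower in NOD.LCMV than in NOD.Ln82-LCMV (-0.48 ± 0.08 log2, limma adjusted p = 0.000262). Ackr3 was dim, with group means of 6.49 to 6.60. Downstream of the receptors, 2 of 22 signalling genes rose in NOD.LCMV and 8 fell, where 7.29% and 12.5% of all genes did (median -0.03 log2, as over all genes). The risers were Rgs1 (2.13 ± 0.15 log2) and Rgs16 (2.06 ± 0.14), which shorten G-protein signals, and among the 8 that fell were the GTPase gene Rac2 (-0.28), the receptor kinase gene Grk6 (-0.42) and the arrestin gene Arrb2 (-0.37).

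For the 7 members called in any comparison, the genes most like each were found by the root mean square distance over the 15 arrays, each gene centred on its own mean, among 17036 genes with established names. Ccl22 lay closest to Cd40 (0.11 log2), then Has2 and Gadd45g (0.13 each), against its own spread of 0.53. Ccl17 lay closest to Slamf7, Ccl22 and Plscr1 (0.13 each, own spread 0.53), so Ccl22 was its second nearest gene. Ccl19 (own spread 0.37) lay closest to Serpinb1a (0.11), Mapkapk3 (0.12) and Csf2rb (0.13). Ccr7 (own spread 0.27) lay closest to Armc7 (0.09), Ctsw and Rgs14 (0.10 each). Genes found in this way share the direction of their member by the way they were chosen, so that direction is not a separate result. For Ccr9 (own spread 0.15) these were Ablim1, Sash3 and Otulinl at 0.05 to 0.06, for Cxcr4 (0.17) Nprl2, Prc1 and Rmc1 at 0.06, and for Cxcl12 (0.24) Enpp5, Ociad2 and Eya1 at 0.06 to 0.07.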

How the data were processed

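The values analysed are deposited log2 intensities for 35556 probe sets, made by the authors with RMA (a method that includes quantile normalisation) and Affymetrix Expression Console 1.1, per the submitters' processing notes. The genome build behind the array annotation is not given in the sources used here. Nothing further was normalised. Of the probe sets, 21789 carried 1 symbol and were reduced to 19938 genes by the highest mean (for the Ccl19 tie, the first probe set), while 1621 with several symbols and 12146 without annotation were not used. Current names were looked up by Entrez ID, which found a match for 19856 genes.

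A linear model with 4 group means was fitted to all 15 arrays in limma 3.58.1 (R 4.3.3), with 11 residual and 14.9 total degrees of freedom, and p-values were adjusted by Benjamini-Hochberg over all genes (two-sided, called under 0.05). Intervals are 95%. RMA draws arrays toward 1 distribution, so changes are relative to the array. Exact permutation tests compared means. The model was also run on simulated independent normal values, with far fewer changed genes than were called here, as a check of the fitting steps only. That run is not used as support for any result. The dim limit leaves 13295 brighter genes above it. The labels call the arrays biological replicates and say nothing of pooling, and each array is taken here as 1 mouse.

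The members and lists were chosen with earlier results of these data known. Named genes were the members, up to 4 called genes per list of chemokine genes with the smallest adjusted p, genes sharing a ligand or receptor with a member, called cell type markers, and the 3 most similar genes; some list genes beyond these were named after their values were seen. Alternatives were a second quantile normalisation, median centring, a filter on dim genes, other treatment of probe sets, array weights, a trend in the variance, fits of the compared groups alone, a replicate block and leaving out each array.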

Additional observations from a re-analysis of the deposited data

Results flagged for a closer look

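Ccl22, Ccl17 and Cxcl12 stand out because their responses to gp33 differed between NOD.LCMV and NOD.Ln82-LCMV by the interaction test in limma. The difference between responses was 1.38 log2 for Ccl22, 1.37 for Ccl17 and -0.51 for Cxcl12, where 8.73% of all genes passed. Each of the 9 genes was also tested for a mouse far from the rest in both NOD.Ln82-LCMV groups, and 0 of these 18 tests found one by Dixon's criterion.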

How the results depend on the processing

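The calls of Ccl22, Ccl17, Ccl19, Ccr7 and Ccr9 after gp33 in NOD.LCMV held under every alternative run. The number of members called for the difference between responses, 3 as reported, was 5 without dim genes, 5 with the mean over probe sets, 5 with a variance trend and 7 with array weights, and 2 to 6 with 1 array left out. Over all 19938 genes, 890 were called higher and 850 lower there as reported. These counts were 885 and 975 of 13295 without dim genes and 898 and 852 with the mean over probe sets. They were 898 and 826 with a variance trend and 1272 and 1903 with array weights. With 1 array left out, 1207 to 1954 genes were called. For the strain difference with the control peptide, the number of members called was 2 as reported, 1 after a second quantile normalisation, 1 with only the groups compared, 5 with array weights, and 0 to 5 with 1 array left out. Over all genes, 952 were called higher and 1105 lower there as reported. These counts were 1230 and 1042 after a second quantile normalisation, 571 and 830 with only the groups compared, and 2304 and 2046 with array weights. Over all genes, the NOD.Ln82-LCMV response had 1 call as reported, 4 with a variance trend, 4 with array weights, 0 with only the groups compared and 0 to 2 with 1 array left out. Array weights gave 3175 calls for the difference between responses (1740 as reported) and 4350 for the strain difference with the control peptide (2057 as reported, 1049 to 2721 with 1 array left out). The causes were not tested. Median centring moved the share of calls that were higher to 47.2% in the NOD.LCMV response (36.9% as reported), 65.5% for the difference between responses (51.1%), 27.7% for the strain difference with gp33 (37.7%, and 47.8% after a second quantile normalisation) and 15.3% with the control peptide (46.3%). With 1 array left out of a group of 3, the spread came from all groups.

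In the replicate block fit, which used the numbers in the NOD.Ln82-LCMV titles, 0 members and 0 genes were called for that strain's response, and 3 members for the difference between responses. Same-numbered mice correlated in their deviations at 0.117, 0.008, -0.05 and -0.226, and differently numbered mice at -0.352 to 0.49. The labels do not say whether the numbers pair the mice, and these correlations cannot settle it. The NOD.LCMV titles share no such numbers.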
